A study of Mus musculus with 22 samples.

Results

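The miR-101 family comprised 3 entries of the mouse microRNA array, mmu-miR-101a-3p, mmu-miR-101b-3p and mmu-miR-101c, chosen by name and written below without the mouse prefix mmu. They were 3 of 1247 miRNAs on the array, and all 3 were among the 290 miRNAs that lay well above background on at least 3 arrays and were tested. The family was measured on 22 single-colour arrays of primary hepatocytes from C57Bl6 mice, cultured in medium with serum. Cells were exposed to cyclosporin A (CsA), an inhibitor of calcineurin used against graft rejection and known for injury to the liver, or to the solvent alone, and RNA was taken at 24 h or 48 h. The design asked what CsA and culture time did to miRNA levels. As the array files are listed, 10 µM CsA had 3 arrays at 24 h and 3 at 48 h, 50 µM CsA had 2 and 3, and 0.5% DMSO had 5 and 6. All groups shared the strain and the culture medium, and the labels do not say whether the CsA medium also held DMSO. They call the arrays biological replicates from 3 numbered experiments without saying which cells shared an animal, so p-values measure the spread between these arrays. The names of the array files and of the columns in the deposited value table did not match for 16 of the 22 arrays, and 8 of the 11 CsA arrays carried the other dose there. Time, treatment and experiment were the same in both sources. Comparisons with doses pooled are therefore unaffected, and each dose comparison is given under both sources of names.

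MicroRNAs are short RNAs that guide Argonaute proteins to messenger RNAs, chiefly through bases 2 to 8 of the miRNA, the seed. In human cells miR-101 is known to repress EZH2, the histone methyltransferase of Polycomb complex PRC2, the prostaglandin synthase PTGS2 and the survival factor MCL1, and it is often low in liver cancer. Mature sequences were taken from RefSeq, where all 3 names had an entry. They are shown because the members are nearly the same RNA, which bears on every value that follows. Capitals mark the seed.
miR-101a-3p: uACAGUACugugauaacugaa
miR-101b-3p: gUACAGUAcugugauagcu
miR-101c: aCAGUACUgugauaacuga

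On the GRCm38.p6 build, miR-101a-3p lies at chr4:101346957-101346977 on the minus strand, and its gene Mir101a overlaps E130102H24Rik. The miR-101b-3p sequence lies at chr19:29135338-29135356 on the plus strand, where Mir101b overlaps Rcl1, a gene of ribosomal RNA processing. The miR-101c sequence lies at chr9:3038680-3038698 on the minus strand, and no other gene of the table overlaps Mir101c. The 19 bases of miR-101c equal bases 2 to 20 of miR-101a-3p. The first 15 bases of miR-101a-3p recur as bases 2 to 16 of miR-101b-3p. The RefSeq entries start at different bases, so the 3 seeds differ in register although the core is shared. Of 1679 mature miRNA names in the table, 0 others carried any of these seeds. Whether a probe for 1 member also binds another was not tested, and the 3 rows cannot be taken as 3 independent measurements.

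The array files held 49880 non-control spots each, on 3 slides scanned on 1 day, with 0 saturated spots. The software listed 201 to 400 miRNAs as detected per array. The hepatocyte markers miR-122-5p, miR-122-3p, miR-192-5p and miR-194-5p were all above background. Their summed scaled signal was 45.4 to 57.3 in CsA and 43.9 to 55.3 in DMSO at 48 h, and 57.2 to 66.8 in CsA and 48.5 to 66.2 in DMSO at 24 h. Of the other cell types' markers, 1 of 4 leukocyte miRNAs (miR-155-5p, on 16 arrays) and 1 of 2 endothelial miRNAs (miR-126-3p, on 20 arrays) were above background on any array. The leukocyte sum was 0.117 to 0.161 in CsA and 0.109 to 0.138 in DMSO at 48 h, and 0.102 to 0.141 in CsA and 0.112 to 0.146 in DMSO at 24 h. The endothelial sum was 0.0995 to 0.166 in CsA and 0.0758 to 0.177 in DMSO at 48 h, and 0.118 to 0.254 in CsA and 0.120 to 0.201 in DMSO at 24 h. Each marker enters these sums with at least the floor of 0.0215, so part of the small leukocyte and endothelial sums is that floor. The part of leukocytes and endothelial cells in the results below was not tested. On no array were miR-142-3p, miR-142-5p, miR-223-3p or miR-126-5p above background, nor were the 4 stellate markers on the array, the 5 biliary markers or the 2 erythroid markers.

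Levels are given as log2 of a probe's signal intensity over the array's 75th percentile, so 0 is that percentile, and a level is compared only with the same probe on other arrays. Each member is read from its brightest probe. All 22 arrays measured miR-101b-3p well above background, with scaled log2 levels of -2.93 at the lowest, -2.22 at the median and -1.51 at the highest. Of the 22 arrays, 18 measured miR-101a-3p above background, with levels of -4.66, -3.75 and -2.81. Only 10 arrays did so for miR-101c, with levels of -5.54, which is the floor set here, -4.47 and -3.39. The highest array was 2.69-fold above the lowest for miR-101b-3p and 3.59-fold for miR-101a-3p, and no exact fold is given for miR-101c, whose lowest array was at the floor. A DMSO array at 24 h, replicate 6, was the highest for all 3 members. The lowest was a DMSO array at 48 h, replicate 5, for miR-101b-3p and miR-101c, and a 10 µM CsA array at 48 h, replicate 3, for miR-101a-3p. That CsA array had a scaling percentile of 605, while the next highest was 373. Its unscaled miR-101a-3p intensity of 24.0 was above the median of 21.8 over all arrays, so its low level rests on the scaling.

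The raw signals were dim. The intensity ran from 14.4 to 48.4 for miR-101a-3p, from 43.6 to 119.8 for miR-101b-3p and from 5.71 to 33.2 for miR-101c, while the percentile used for scaling ran from 188 to 605. Each value averaged 15 to 20 spots. The median coefficient of variation between those spots was 7.39% for miR-101b-3p, 13.7% for miR-101a-3p and 22.5% for miR-101c, widest for the dimmest member. A second probe was above background on 17 arrays for miR-101a-3p, on 19 for miR-101b-3p and on 2 for miR-101c. The passenger arms miR-101a-5p and miR-101b-5p, the strands opposite the mature 3p arms, were above background on 0 of 22 arrays with all of their probes.

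**Figure D1:**
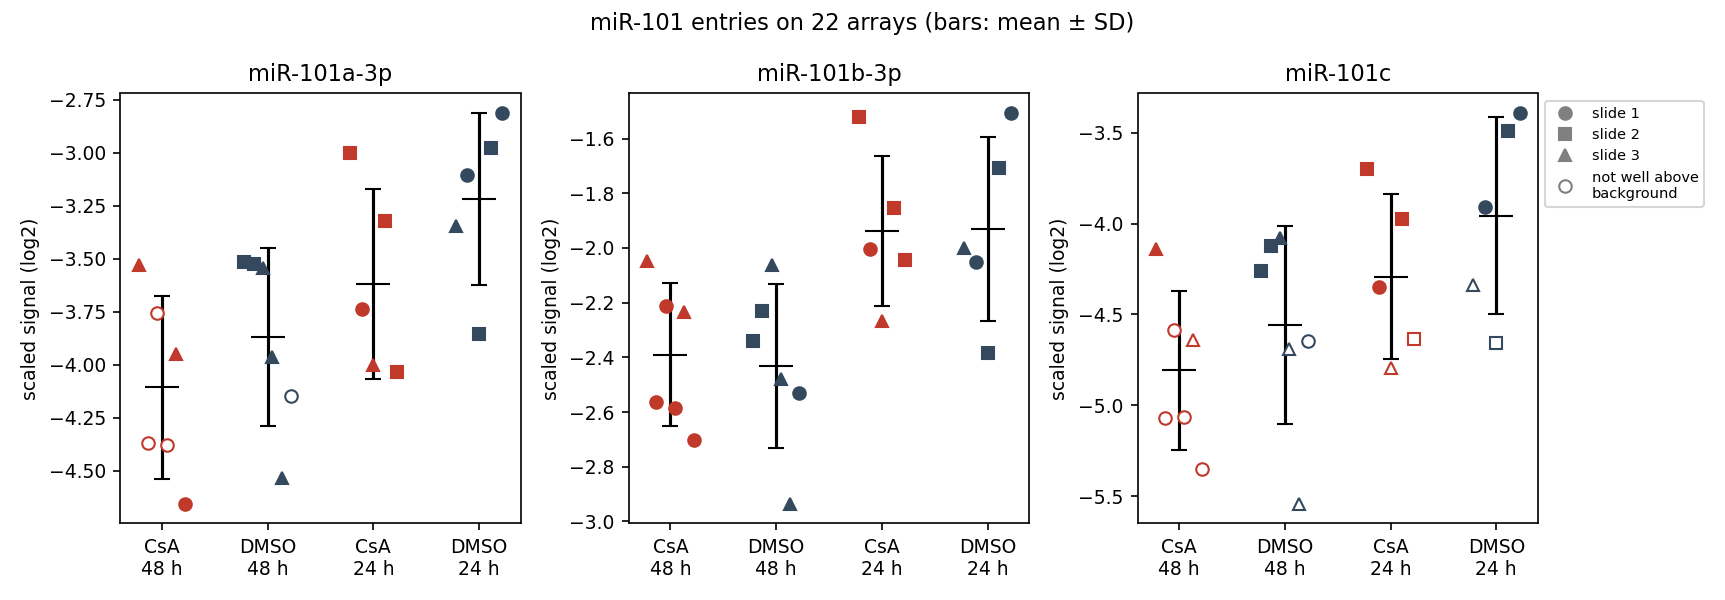
Scaled log2 signal (y axis) of the 3 miR-101 entries on each of 22 arrays by treatment and time (x axis), with doses pooled. Marker shapes give the slide, open markers arrays not well above background, and bars the mean ± SD. The 48 h arrays lie lower than the 24 h arrays in mean under both treatments, and the groups overlap in every panel.

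The members moved together from array to array. Over 22 arrays Pearson's r was 0.97 between miR-101a-3p and miR-101c (Spearman's rho 0.95), 0.90 between miR-101a-3p and miR-101b-3p (rho 0.86), and 0.92 between miR-101b-3p and miR-101c (rho 0.88). The permutation p was 1e-05 for each r and each rho, which is the smallest the permutations can give, and the adjusted p over the 3 pairs was also 1e-05. Without the 2 arrays farthest from the median, r was 0.96, 0.87 and 0.87 in the same order of pairs. After the group means were removed, r was 0.96, 0.94 and 0.96. Within slides, r ran from 0.75 to 0.99 over 7 or 8 arrays each. The pairs share the scaling factor of an array and most of their sequence, and the part of either in these correlations was not tested. All tested miRNAs share that factor, and their median r was -0.27 with miR-101a-3p and -0.22 with miR-101b-3p. The correlations between members describe the arrays and do not separate the members.

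**Figure D2:**
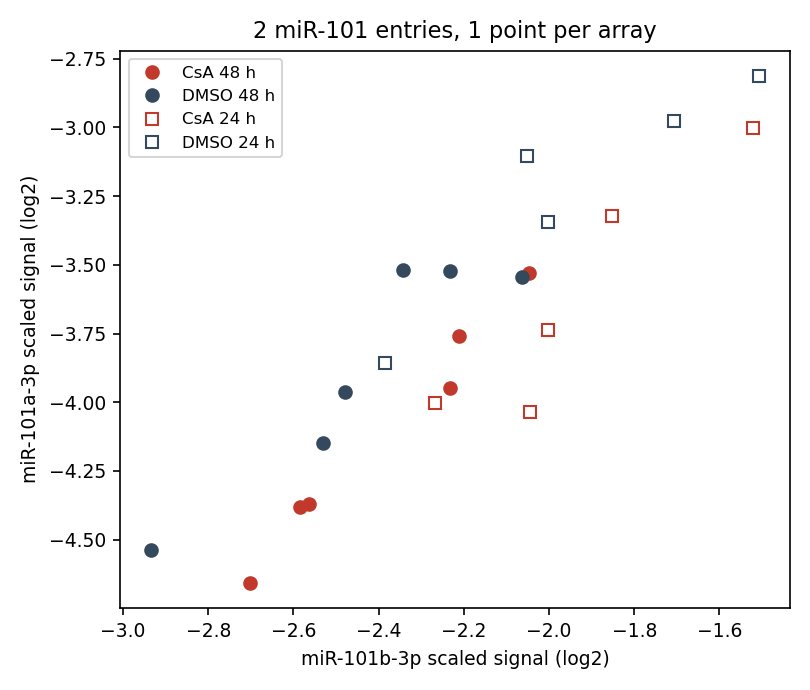
Scaled log2 signal of miR-101a-3p (y axis) against miR-101b-3p (x axis), 1 point per array. Filled circles are 48 h and open squares 24 h, with CsA in red and DMSO in dark blue. The points follow 1 band (r of 0.90 over 22 arrays), and the within-array difference of the pair was lower in CsA by 0.28 at 48 h and 0.39 at 24 h in mean.

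CsA against DMSO, with doses pooled, moved no member past the threshold in limma. At 48 h miR-101a-3p had levels of -4.66 (lowest), -4.16 (median) and -3.53 (highest) on 6 CsA arrays, and -4.54, -3.75 and -3.52 on 6 DMSO arrays. The groups overlapped over nearly their whole range, and 0 of 3 members had groups that did not overlap, against 1.72% of all tested miRNAs. The log2 difference was -0.24 ± 0.24 (SE, n = 6 each, limma adjusted p = 0.539), with a 95% confidence interval of -0.74 to 0.27. Of these arrays 3 of 6 in CsA and 5 of 6 in DMSO were above background. Over 10 other settings that kept the file names, the difference ran from -1.33 with the value table's values to -0.0048 with a floor 4 times higher, and no setting passed. The level of miR-101b-3p averaged -2.39 ± 0.26 in CsA and -2.43 ± 0.30 in DMSO (SD, n = 6 each), a log2 difference of 0.04 ± 0.18 (adjusted p = 0.884) with an interval of -0.34 to 0.42. Its sign turned with the scaling, to -0.38 with the percentile over all probes and -0.16 with quantile normalisation, -0.20 with the value table and -0.10 with normexp. The level of miR-101c averaged -4.81 ± 0.44 in CsA, where 1 of 6 arrays was above background, and -4.56 ± 0.55 in DMSO, where 3 of 6 were. Its difference ran from -1.34 to 0.00 over the same settings. Of the members 0 of 3 passed at 48 h. Of all tested miRNAs 6.9% did, 13 higher and 7 lower, and the median log2 difference of all 290 was 0.14. Within slides the differences of miR-101a-3p at 48 h had opposite signs, -0.14 on slide 1 (4 CsA arrays and 1 DMSO array) and 0.27 on slide 3 (2 and 3).

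At 24 h the 5 CsA arrays had miR-101a-3p levels of -3.00 and -4.03 at the ends of their range, with a mean of -3.62 ± 0.45 (SD). The 5 DMSO arrays ran from -3.86 to -2.81, with a mean of -3.22 ± 0.41. The ranges overlapped, as they did for the other members, while 0.345% of all tested miRNAs had groups that did not overlap. The log2 difference was -0.40 ± 0.27 (limma adjusted p = 0.783), with an interval of -0.95 to 0.15. For miR-101b-3p the means were -1.94 ± 0.28 in CsA and -1.93 ± 0.34 in DMSO, a difference of -0.01 ± 0.20 (adjusted p = 0.999) with an interval of -0.42 to 0.41. For miR-101c the means were -4.29 ± 0.45 in CsA and -3.96 ± 0.54 in DMSO, with 3 of 5 arrays above background in each, and the difference was -0.34 ± 0.30 (adjusted p = 0.853). None of the 3 members passed at 24 h, and neither did any other miRNA: limma called 0% of 290, with 25 at an unadjusted p under 0.05. The CsA difference at 48 h minus that at 24 h was 0.17 ± 0.36 for miR-101a-3p, 0.05 ± 0.27 for miR-101b-3p and 0.09 ± 0.41 for miR-101c, with adjusted p of 0.872, 0.951 and 0.940. No miRNA (0%) passed that test of 290, and 7 had an unadjusted p under 0.05.

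**Figure D3:**
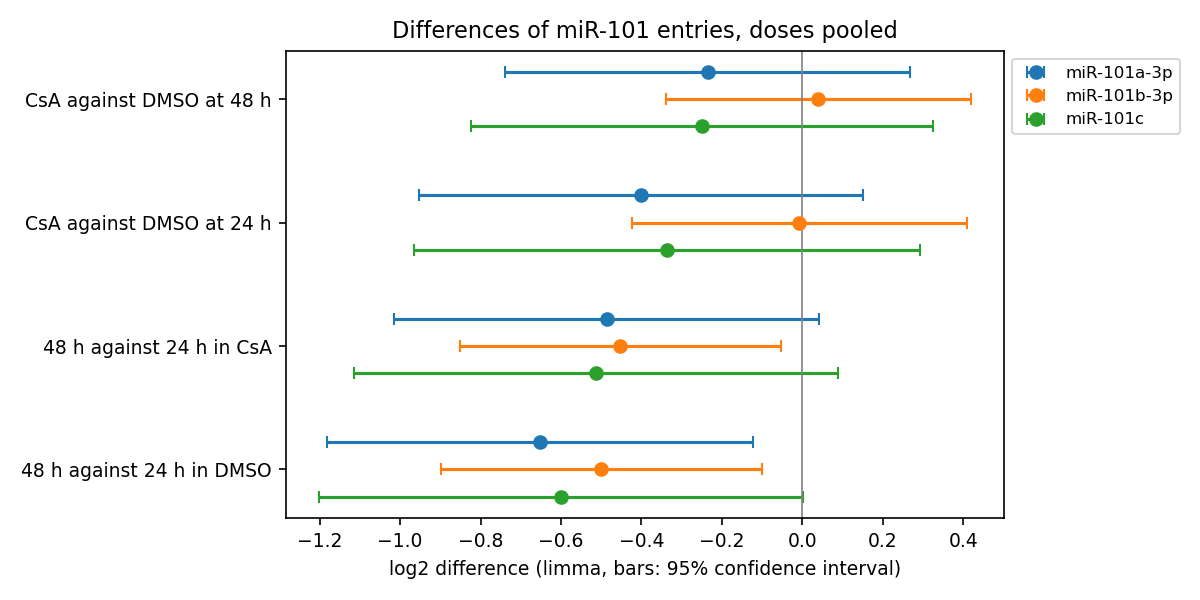
Log2 differences (x axis) of miR-101a-3p, miR-101b-3p and miR-101c for 4 comparisons with doses pooled (y axis), with 95% confidence intervals from limma. The intervals of miR-101a-3p and miR-101b-3p for 48 h against 24 h in DMSO, and of miR-101b-3p for 48 h against 24 h in CsA, lie below 0 before adjustment, and no member passed after adjustment over 290 miRNAs.

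Levels at 48 h averaged below those at 24 h for all 3 members under both treatments, and no difference passed after adjustment. In DMSO miR-101a-3p averaged -3.87 ± 0.42 at 48 h and -3.22 ± 0.41 at 24 h (SD, n = 6 and 5). It was 1.57-fold lower at 48 h, with a log2 difference of -0.65 ± 0.26 (SE, limma adjusted p = 0.344). In DMSO miR-101b-3p had levels of -2.93, -2.41 and -2.06 (lowest, median, highest) at 48 h, and ran from -2.38 to -1.51 at 24 h. Its log2 difference was -0.50 ± 0.19 (limma adjusted p = 0.338), 1.41-fold lower at 48 h, and the 2 times overlapped. In DMSO miR-101c differed by -0.60 ± 0.29 (adjusted p = 0.358). In CsA the log2 differences were -0.49 ± 0.26 for miR-101a-3p, -0.45 ± 0.19 for miR-101b-3p and -0.51 ± 0.29 for miR-101c, with limma adjusted p of 0.374, 0.270 and 0.376. At 48 h in CsA miR-101a-3p was above background on 3 of 6 arrays and miR-101c on 1 of 6, so the sizes of these differences are uncertain. Over the 10 other settings miR-101a-3p ran from -1.66 to -0.15 in CsA and from -0.82 to -0.20 in DMSO, and miR-101c from -2.41 to 0.00 in CsA and from -1.72 to -0.04 in DMSO. The difference of miR-101b-3p, above background on every array, ran from -0.79 to -0.33 in CsA and from -0.56 to -0.26 in DMSO. Against these 0 of 3 members, 0.345% of all tested miRNAs passed in DMSO and 0.345% in CsA, 1 miRNA each. The times overlapped for every member under both treatments, against 0.345% of all tested miRNAs without overlap in DMSO and 3.1% in CsA. The medians of all tested miRNAs lay above 0, at 0.05 in DMSO and 0.21 in CsA. Over the 10 other settings the CsA median ran from -0.13 with the percentile over all probes to 0.21 with the replicate block. Its sign thus depended on the setting, while the DMSO median stayed above 0, from 0.0038 to 0.11. Of the 9 hepatocyte-enriched miRNAs tested, 9 had a negative difference in CsA (median -0.41) and 8 in DMSO (median -0.22), and 1 in CsA and 0 in DMSO passed. All 4 hepatocyte markers had a negative difference under both treatments. They are among these 9 and do not count as separate evidence. The endothelial miR-126-3p differed by -0.49 ± 0.26 in CsA and -0.64 ± 0.26 in DMSO (limma adjusted p = 0.376 and 0.344). The leukocyte miR-155-5p differed by 0.42 ± 0.21 in CsA and -0.04 ± 0.21 in DMSO (limma adjusted p = 0.349 and 0.967). The part of these in the family's values was not tested. Within slides miR-101a-3p in DMSO differed by -1.19, -0.10 and -0.67 on slides 1, 2 and 3. In CsA it differed by -0.55 on slide 1 and 0.26 on slide 3, where it rests on 2 arrays at 48 h and 1 at 24 h. Levels are relative to each array's percentile and do not measure the number of cells. In whole cultures a changed mix of cells and a changed level per cell cannot be told apart.

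By the array files, dose made no detectable difference to the family. At 48 h the 6 DMSO arrays ran from -4.54 to -3.52 in miR-101a-3p level, the 3 arrays at 10 µM had -3.53, -4.38 and -4.66, and the 3 at 50 µM had -3.76, -3.95 and -4.37. At 24 h the DMSO arrays ran from -3.86 to -2.81, the 10 µM arrays had -3.003, -4.003 and -4.035, and the 50 µM arrays had -3.32 and -3.74. The doses overlapped each other and DMSO at both times. Of all tested miRNAs 2.07% had doses that did not overlap at 48 h and 8.28% at 24 h. Against DMSO the share without overlap was 3.1% at 10 µM and 3.79% at 50 µM at 48 h, and 4.48% and 5.17% at 24 h. The log2 difference of 50 µM against 10 µM was 0.16 ± 0.36 at 48 h (SE, n = 3 each, limma adjusted p = 0.997) and 0.15 ± 0.40 at 24 h (n = 2 and 3, adjusted p = 0.980). Of all tested miRNAs 0% passed for 50 µM against 10 µM at either time, with 3 and 4 at an unadjusted p under 0.05. Against DMSO the log2 differences of miR-101a-3p were -0.32 ± 0.31 at 10 µM and -0.15 ± 0.31 at 50 µM at 48 h, and -0.46 ± 0.32 and -0.31 ± 0.37 at 24 h, with limma adjusted p of 0.577, 0.821, 0.724 and 0.999. No member passed in any of these, against 1.03%, 0.345%, 0% and 0% of all tested miRNAs. At 50 µM and 48 h miR-101c was not well above background on any of 3 arrays, so only a bound exists there and no fold is given.

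By the columns of the value table, the same 22 arrays gave an order by dose. At 48 h the miR-101a-3p levels were then -4.37, -4.38 and -4.66 at 50 µM and -3.53, -3.76 and -3.95 at 10 µM. At 24 h they were -4.003 and -4.035 at 50 µM and -3.003, -3.32 and -3.74 at 10 µM. Every 50 µM array lay below every 10 µM array of its time in scaled level, and at 24 h below every DMSO array. In unscaled intensity the doses overlapped at 48 h, with 16.1 to 24.0 at 50 µM and 17.9 to 25.0 at 10 µM. The 50 µM array at -4.66 had the highest scaling percentile of all arrays, 605. At 48 h 1 of 3 arrays at 50 µM and 2 of 3 at 10 µM were above background for miR-101a-3p, so their order is not secure. At 24 h all of these arrays were above background. The log2 difference of 50 µM against 10 µM was -0.72 ± 0.29 at 48 h (limma adjusted p = 0.0685) and -0.66 ± 0.32 at 24 h (adjusted p = 0.496). Of all tested miRNAs 57.6% had doses that did not overlap at 48 h and 31.4% at 24 h, so separation was common under these names. Against DMSO the share without overlap was 3.1% at 10 µM and 29.3% at 50 µM at 48 h, and 3.79% and 21.4% at 24 h. Limma passed 26.9% at 48 h and 0.345% at 24 h, and none of the 3 members.

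**Figure D4:**
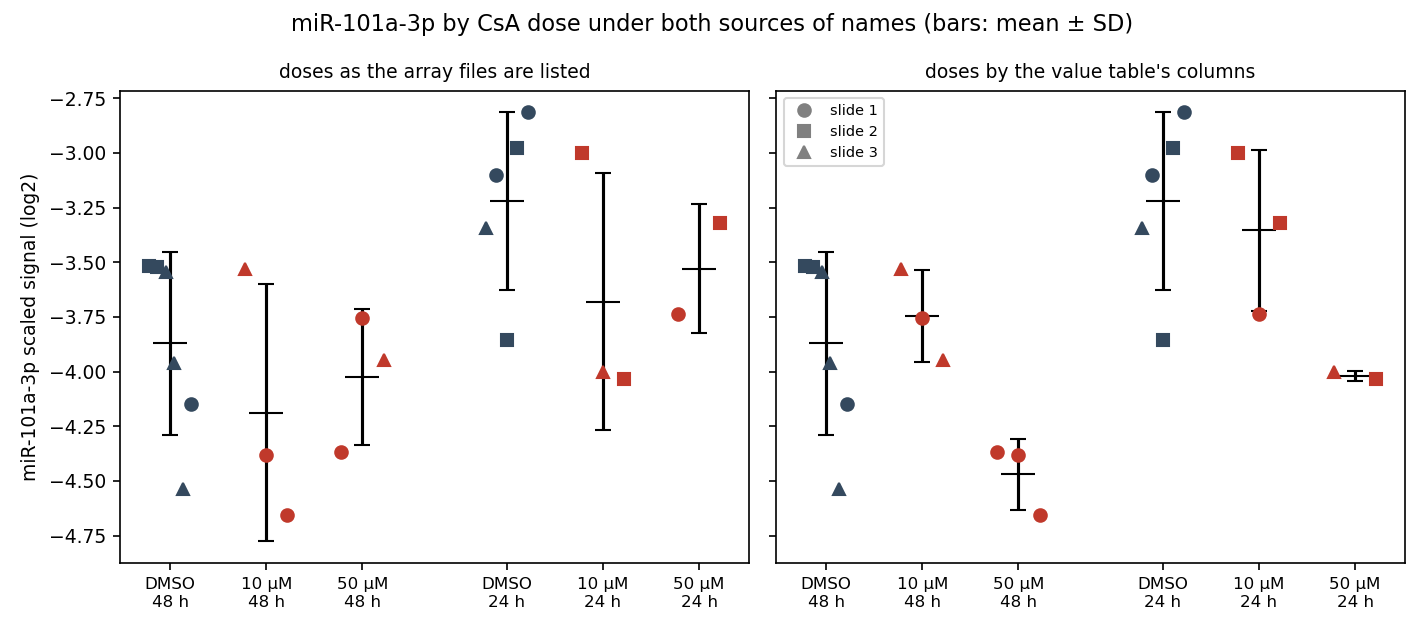
Scaled log2 signal of miR-101a-3p (y axis) on the same arrays by DMSO, 10 µM and 50 µM CsA at 48 h and 24 h (x axis), with doses as the array files are listed (left) and by the value table's columns (right). Bars are the mean ± SD and marker shapes the slide. The 50 µM and 10 µM arrays overlap on the left and separate on the right.

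Against DMSO under the value table's names, miR-101a-3p at 50 µM and 48 h averaged -4.47 ± 0.16, against -3.87 ± 0.42 in DMSO (SD, n = 3 and 6), with 1 of 3 and 5 of 6 arrays above background. The log2 difference was -0.60 ± 0.25 (SE, limma adjusted p = 0.0595), while 40.7% of all tested miRNAs passed. With the experiment number as a block the adjusted p was 0.0381, and that of 50 µM against 10 µM at 48 h was 0.0410. Of all 290 tested miRNAs 158 passed in the blocked fit against DMSO, and 108 in that against 10 µM. Both calls of miR-101a-3p rest on 50 µM arrays mostly not above background, so the sizes are uncertain. For 50 µM against DMSO at 24 h the difference was -0.80 ± 0.29 (n = 2 and 5, limma adjusted p = 0.140), while 5.52% of all tested miRNAs passed. The level of miR-101b-3p at 50 µM differed from DMSO by -0.19 ± 0.20 at 48 h (adjusted p = 0.456) and -0.23 ± 0.24 at 24 h (adjusted p = 0.670). At 50 µM miR-101c was above background on 0 of 3 arrays at 48 h and 0 of 2 at 24 h. It averaged -4.72 ± 0.11 at 50 µM and -3.96 ± 0.54 in DMSO at 24 h, where 3 of 5 DMSO arrays were above background, and no fold is given. All 3 arrays at 50 µM and 48 h under these names lay on slide 1. At 10 µM the value table's names gave miR-101a-3p differences from DMSO of 0.13 ± 0.25 at 48 h and -0.13 ± 0.26 at 24 h (adjusted p = 0.999 and 0.961), against 0.345% and 0% of all tested miRNAs that passed. For 48 h against 24 h within a dose, the array files' names gave miR-101a-3p log2 differences of -0.50 ± 0.40 at 50 µM, with no overlap of times, and -0.51 ± 0.36 at 10 µM (limma adjusted p = 0.739 and 0.733). Of all tested miRNAs 30.7% and 7.24% had times that did not overlap, and 0% and 0% passed. The value table's names gave -0.45 ± 0.32 at 50 µM, again with no overlap, and -0.39 ± 0.29 at 10 µM (limma adjusted p = 0.525 and 0.690), beside 51% and 17.2% without overlap and 1.38% and 0% that passed. The labels and files do not settle which source names the doses rightly.

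The difference between miR-101a-3p and miR-101b-3p within an array, on the log2 scale, does not depend on the 1 factor by which that array was scaled. It can change with quantile normalisation or normexp, which do not use 1 factor per array. Its absolute size includes the efficiency of both probes, so only its change between groups is read. At 48 h it was -1.95 (lowest), -1.76 (median) and -1.48 (highest) on 6 CsA arrays, and -1.62, -1.48 and -1.18 on 6 DMSO arrays. At 24 h the 5 CsA arrays ran from -1.99 to -1.47 with a median of -1.73, and the 5 DMSO arrays from -1.47 to -1.05 with a median of -1.31. The CsA arrays were lower in median at both times, and the groups overlapped. At 48 h miR-101a-3p was above background on 3 of 6 CsA arrays and 5 of 6 DMSO arrays, and at 24 h on all arrays.

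The mean within-array difference at 48 h was -1.72 ± 0.18 in CsA and -1.44 ± 0.17 in DMSO (SD, n = 6 each). They differed by -0.28, with an exact two-sided permutation p of 0.0238 and an adjusted p of 0.0476 over 4 such tests. At 24 h the means were -1.68 ± 0.22 in CsA and -1.29 ± 0.15 in DMSO (SD, n = 5 each), which differed by -0.39 (exact permutation p = 0.0159, adjusted p = 0.0476). The smallest p these designs allow is 0.00216 at 48 h and 0.00794 at 24 h. By this test miR-101a-3p was lower relative to miR-101b-3p in CsA, a difference that several other settings did not keep. For 48 h against 24 h the within-array difference changed by -0.15 in DMSO (adjusted p = 0.219) and by -0.03 in CsA (adjusted p = 0.710, exact permutation tests).

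The within-array result kept its call with the second probes. It lost the call once slides were held apart, where few permutations were possible. The second probes of both miRNAs gave -0.29 at 48 h (adjusted p = 0.0260) and -0.35 at 24 h (adjusted p = 0.0317). CsA minus DMSO was below 0 in all 3 experiments at each time, at -0.41, -0.19 and -0.23 at 48 h and -0.14, -0.47 and -0.44 at 24 h in experiments 1, 2 and 3. Permuted within experiments, the adjusted p was 0.0370 at 48 h and 0.0556 at 24 h, so the 24 h call was lost. The 24 h value stayed at -0.39. Its unadjusted permutation p of 0.0278 was the smallest that the 72 permutations allow, so this loss does not show a weaker difference. CsA arrays at 48 h lay on slide 1 (4) and slide 3 (2), and DMSO arrays at 48 h on slides 1, 2 and 3 (1, 2 and 3). Within slides the 48 h differences were -0.16 on slide 1 and -0.08 on slide 3. The 24 h differences were -0.56, -0.28 and -0.39 on slides 1, 2 and 3. Permuted within slides, the 48 h value was -0.11 (exact permutation p = 0.240, adjusted p = 0.463) and the 24 h value -0.38 (p = 0.0667, adjusted p = 0.267). These tests had only 50 permutations at 48 h and 60 at 24 h, which leaves little room to pass after adjustment. The 24 h value itself stayed near the -0.39 found without blocks, while the 48 h value shrank from -0.28. With normexp background correction and quantile normalisation the values were 0.00 at 48 h and -0.12 at 24 h (adjusted p = 0.963 and 0.111). With only the arrays on which miR-101a-3p was above background they were -0.31 at 48 h and -0.39 at 24 h (adjusted p = 0.143 and 0.0635), and at 24 h the arrays were the same, so that p changed only through the adjustment over 4 tests. Leaving out 1 array raised the adjusted p to as much as 0.0952 at 48 h and 0.0635 at 24 h. By the file names, the call held at 48 h without CsA 10 µM replicate 1, CsA 50 µM replicate 2, DMSO replicate 5 or DMSO replicate 6, at 24 h without CsA 50 µM replicate 3 or DMSO replicate 4, and without none of the other arrays.

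**Figure D5:**
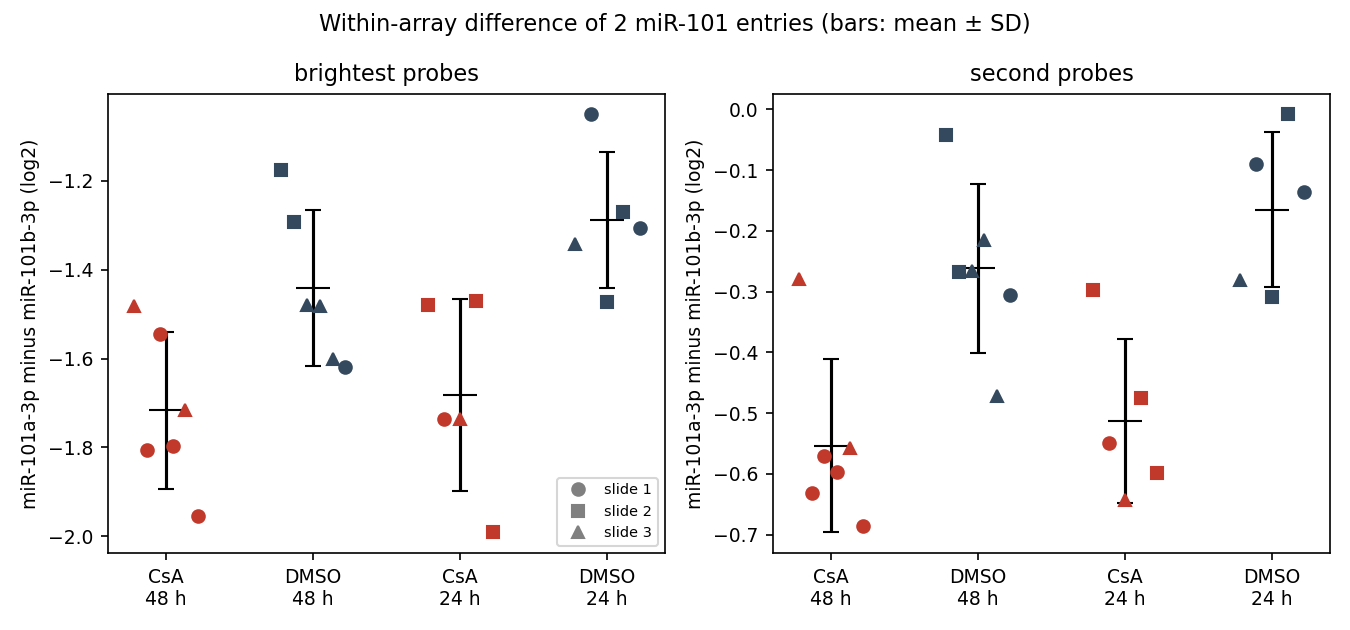
Log2 signal of miR-101a-3p minus that of miR-101b-3p on the same array (y axis) by treatment and time (x axis), for the brightest probes (left) and the second probes (right). Bars are the mean ± SD and marker shapes the slide. CsA arrays sit lower than DMSO arrays of their time in mean, by 0.28 at 48 h and 0.39 at 24 h for the brightest probes, and the groups overlap.

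By dose, the mean within-array difference under the file names was -1.69 at 50 µM and -1.74 at 10 µM at 48 h, and -1.60 and -1.74 at 24 h. Under the value table's names it was -1.85 at 50 µM and -1.58 at 10 µM at 48 h, and -1.86 and -1.56 at 24 h. The doses thus had means of opposite order in the 2 sources of names, and no test was run on them.

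After its own family, the miRNAs whose levels followed miR-101a-3p most closely over the 22 arrays were miR-30e-5p (r of 0.88), miR-29b-3p (0.80) and miR-193a-3p (0.78). Those closest to miR-101b-3p were miR-29c-3p (0.83), miR-29b-3p (0.81) and miR-148a-3p (0.81). The miR-29 family is known to repress collagen mRNAs, and miR-148a-3p is abundant in hepatocytes. The median r of all tested miRNAs was -0.27 with miR-101a-3p and -0.22 with miR-101b-3p. These values describe arrays that share slides and scaling.

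Other miRNAs with the same known targets were read beside the family. Of 13 miRNAs known to repress Ezh2, let-7 members, miR-26, miR-98, miR-138 and miR-214 among them, 11 were tested and 0 passed in CsA against DMSO at either time, beside 6.9% of all tested miRNAs at 48 h and 0% at 24 h. Their median log2 difference was -0.16 at 48 h, with 11 of 11 negative, and 0.05 at 24 h, with 2 of 11 negative, beside 0.14 and 0.08 for all tested miRNAs. The brightest were let-7f-5p at -0.10 ± 0.20, let-7a-5p at -0.16 ± 0.19 and let-7c-5p at -0.18 ± 0.16 at 48 h. The let-7 members are near-identical in sequence and do not count as separate evidence. With the percentile taken over all probes, the median of all tested miRNAs at 48 h was -0.27 instead of 0.14, and the 20 calls (13 higher, 7 lower) became 17, all lower. The 11 miRNAs of this list were negative at 48 h under that scaling too (median -0.58), and at 24 h the list's median turned to -0.09 with normexp and -0.01 with the value table. Of 5 miRNAs known to repress Ptgs2, 2 were tested and 0 passed, beside the same 6.9% and 0%. At 48 h miR-16-5p differed by 0.02 ± 0.16 and miR-26b-5p by -0.15 ± 0.18.

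Of 10 hepatocyte-enriched miRNAs, 9 were tested. Only miR-193a-3p passed among them in the pooled comparisons, beside 6.9% of all tested miRNAs for CsA against DMSO at 48 h and 0.345% for 48 h against 24 h in CsA. It was lower in CsA at 48 h by a log2 difference of -0.71 ± 0.21 (limma adjusted p = 0.0499) and lower at 48 h than at 24 h in CsA (-0.98 ± 0.22, adjusted p = 0.0460). It passed under 6 of 22 alternatives in the first comparison (-1.13 to -0.54) and 10 of 21 in the second (-1.32 to -0.67). The most abundant liver miRNA, miR-122-5p, differed by 0.07 ± 0.13 at 48 h and 0.10 ± 0.14 at 24 h in CsA against DMSO (adjusted p = 0.777 and 0.934). Also bright were miR-22-3p, at -0.16 ± 0.17 and 0.08 ± 0.19 in the same order, and miR-192-5p, at -0.28 ± 0.16 and -0.07 ± 0.17. The list's median was -0.15 at 48 h and 0.08 at 24 h, beside 0.14 and 0.08 for all tested miRNAs.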

How the data were processed

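MicroRNAs were measured on 22 of the 24 arrays that the design text names; the other arrays were not analysed here. Per the file headers, Agilent Feature Extraction 10.7.3.1 made the deposited processed signal, a background-subtracted fluorescence intensity per spot. The authors' value table holds log2 values, for which the submitters' processing notes name R 2.15.2. Quantile normalisation of the total gene signal after a minimum of 0.5 rebuilt that table to within 1e-06, so its scale is log2, not centred, and all column medians were -1. Each column matched 1 array (rank correlation 1, next best at most 0.968). Extraction with miRNeasy and Agilent labelling are given per the labels' protocols. The labels also name biotin as the label and HepG2 in the treatment text, against primary mouse hepatocytes elsewhere. No label or header names a genome build.

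The intensity was averaged over a probe's spots without outlier flags (2.19% to 10.3% of spots were flagged) and scaled to each array's 75th percentile, taken from the 281 probes that were above background throughout. It was then raised to a floor of 0.0215 (log2 -5.54), the lowest scaled signal measured above background, and put on a log2 scale. A probe was called well above background if the software so marked a share of 0.5 or more of its spots, which held for 14.4% of probe-array pairs. The brightest probe stood for each miRNA. Differences were tested with limma 3.58.1 (R 4.3.3, lmFit and eBayes) over 290 miRNAs with Benjamini-Hochberg adjustment at 0.05, after a check on simulated data. Pooled comparisons used 4 groups and dose comparisons 6. Within-array differences used exact permutation tests in Python 3.11.15 with scipy 1.17.1. The number of arrays limits the precision.

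Members and lists were chosen with earlier results of these data known. Named miRNAs are the members with their probes and 5p arms, list members that passed in a pooled comparison, the 3 brightest of each list and the 5 closest to miR-101a-3p and to miR-101b-3p by correlation. Experiment numbers come from the labels. Arrays of the same experiment deviated together at 48 h (r of 0.71, 0.38 and 0.75) and less clearly at 24 h (0.42, 0.09 and 0.32), so the numbers met the criterion for pairing, every r over 0.1, at 48 h alone. Alternatives were other scalings, normexp, quantile normalisation, probe choice, floors, the dim-probe filter, slide and experiment blocks, the value table and leaving out each array.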

Additional observations from a re-analysis of the deposited data

How the results depend on the processing

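The 43 results on members and on the within-array difference were recomputed under 1142 alternatives. Of these, 1102 left the call as it was, 10 brought a value past the threshold and 24 took it away. In the other 6 the sign turned along with the call. No member passed in limma before the alternatives, so for members these were new calls of the opposite sign. The causes were not tested. No limma call of a member appeared under any alternative by file names. Alternatives added after seeing the data were the value table's names, a floor at the median array, second probes, arrays above background only, blocked permutation and the list medians under other scalings.

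Under the value table's names at 48 h, 50 µM against DMSO gave -2.64 for miR-101a-3p with that table's values, -1.05 with quantile normalisation, -1.17 with the percentile over all probes and -0.60 with the replicate block. Of all 290 tested miRNAs 104, 136, 144 and 158 passed in the same order of settings. The minimum of 0.5 that rebuilt that table is log2 -1, which is also the median of its columns. At 50 µM 1 of 3 arrays was above background for miR-101a-3p, so its sizes here and against 10 µM are uncertain. In the same comparison miR-101c gave -0.99 with quantile normalisation and -1.09 with the percentile over all probes, and miR-101b-3p gave -0.76 with that percentile, against -0.19 under those names alone and 0.09 under the file names. At 50 µM miR-101c was above background on 0 of 3 arrays, so its sizes here and in the result below without a DMSO array are uncertain. For 50 µM against 10 µM at 48 h, the names alone gave miR-101a-3p -0.72, against 0.16 by file names, and miR-101b-3p -0.45, against 0.11, without a call. With those names miR-101a-3p passed at -2.62 with that table's values, -1.12 with quantile normalisation and an unmoved -0.72 with the replicate block, and miR-101b-3p at -0.77 with quantile normalisation. Of all 290 tested miRNAs 69, 96 and 108 passed with the value table's values, quantile normalisation and the replicate block. Under those names, leaving out DMSO replicates 5 or 6 at 48 h brought miR-101a-3p at 50 µM to -0.65 and -0.73, past the threshold, leaving out replicate 6 did so for miR-101c at -0.80, and leaving out DMSO replicate 3 at 24 h for miR-101a-3p at -0.96.

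The within-array difference for CsA against DMSO lost its call at 48 h with quantile normalisation (-0.34), with the value table (-1.13), with arrays above background only (-0.31) and with slide as a block (-0.11), and turned to 0.0044 with normexp. At 24 h it lost its call with normexp (-0.12), arrays above background only (-0.39), slide as a block (-0.38) and the replicate block by experiment (-0.39, adjusted p = 0.0556), while at 48 h the replicate block kept it (-0.28, adjusted p = 0.0370). Leaving out 1 array gave -0.32 to -0.22 at 48 h (adjusted p up to 0.0952) and -0.45 to -0.32 at 24 h (adjusted p up to 0.0635).

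The count of miRNAs called for CsA against DMSO at 48 h was 20, against 39 with the replicate block, 1 with slide as a block, 3 with the floor at the median array, 8 with no filter, 6 with the value table and 5 each with normexp, the mean of all probes and a floor 4 times higher. The block changed no call of a member by file names in limma. Dim signal limits miR-101c most, above background on 10 of 22 arrays.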
